A study of Mus musculus with 12 samples.

Results

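The regional difference in cortex that lacks AP2gamma was examined by setting 3 caudal against 3 rostral pieces of knockout (KO) cortex. These 6 arrays were taken by their sample titles from a series of 12. The other 6 arrays, 3 caudal and 3 rostral wild-type (WT) pieces, served for the same comparison in WT and for comparing KO with WT. They also entered the filter and the shared fit that gave the spread behind every KO p-value. All tissue was mouse cortex at embryonic day 14, and each array carried its own animal number. Caudal KO arrays were those of animals 1, 2 and 13, and rostral KO arrays those of animals 7, 8 and 15. Caudal WT arrays were those of animals 4, 6 and 14, and rostral WT arrays those of animals 10, 12 and 16. The labels give no strain and do not say how the knockout was made or which cells lost the gene. From each piece, 400 ng of total RNA were amplified and biotin-labelled for a 1-colour oligonucleotide array.

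AP2gamma, encoded by Tfap2c, is a transcription factor whose role in basal progenitors, the dividing cells that leave the ventricular surface of the cortex, is the subject of the series. The embryonic cortex is patterned along its rostrocaudal axis by fibroblast growth factors (FGFs) released at its rostral pole and by transcription factors expressed in opposing gradients. Nr2f1 and Nr2f2 are high caudally, whereas Sp8 and Pax6 are high rostrally. A rostral piece lies near the septum and the ganglionic eminences, which express their own transcription factors.

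Values are the authors' deposited log2 expression values, used as given, and each difference below is caudal minus rostral with its standard error (SE) from limma. A gene passed the test where its p-value, adjusted over 11785 tested genes by the Benjamini-Hochberg method, was below 0.05. A gene is called dim in a group where all 3 arrays lay at or below 5.21, the median of the whole table. The fold of such a gene is given as a lower limit, with lower values raised to 5.21. Genes were named by a rule, and the members of lists, markers and neighbours that are named without having passed, as well as Mdfic, Zfp423, Gfra1, Pth1r, Cemip, Serping1, Tagln2 and Lima1, lie outside it and were chosen after their values were seen. With 3 arrays a group, the number of arrays limits the precision of every value. The labels call the samples biological replicates but do not say whether any embryos shared a litter.

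The targeted gene was measured first. The Tfap2c probe set of highest mean read 7.71, 7.86 and 7.44 in caudal KO, 8.11, 8.63 and 8.09 in rostral KO, 9.19, 8.84 and 8.64 in caudal WT and between 8.54 and 9.06 in rostral WT. On this probe set every KO array lay below every caudal WT array, but the highest rostral KO array lay above the lowest rostral WT array. Another tested probe set read 7.40, 7.79 and 7.58 in rostral KO and 8.41, 8.44 and 8.07 in rostral WT. A further one read 7.13, 7.50 and 7.17 in rostral KO and 8.20, 8.05 and 7.65 in rostral WT. On both of these, KO and WT arrays did not overlap in either region. For the first probe set, KO was lower than WT by 1.22 on the log2 scale in caudal and by 0.59 in rostral cortex. Neither difference passed the test (adjusted p = 0.0843 and 0.633, limma). In the fit that gave animals 13 to 16, 1 in each group, a shared offset, the caudal difference passed (adjusted p = 0.00591). Whether the probe sets lie in a deleted part of the gene is not given in the sources used here. Between the KO regions Tfap2c differed by -0.61 ± 0.19 and did not pass (adjusted p = 0.178; 0.0314 with the shared offset and 0.0418 with array weights, 0.0314 to 0.567 over all alternatives).

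The 8 measured markers of cortex were above the table median on all 6 KO arrays, with summed values of 79.39 to 83.32. Xist did not exceed 5.21 on any KO array, and Eif2s3y, which is Y-linked, read 8.78 or more on each. In WT, caudal animal 6 and rostral animal 12 differed from the other 4 arrays, with Xist at 11.32 and 11.89 and Eif2s3y at 0.20 and 2.60, so that the WT groups were mixed in these genes and the KO groups were not. The array of rostral KO animal 15 stood apart in markers of the meninges, the membranes that cover the brain. It had 8 of 10 such markers above the table median with a summed value of 71.77, against 3 of 10 and 42.85 to 47.92 on the other 5 KO arrays. Its collagen Col3a1 read 9.97. Markers of the ganglionic eminence and its interneurons summed to 53.47, 62.64 and 64.96 on the caudal KO arrays and to 67.26, 73.42 and 87.54 on the arrays of rostral animals 7, 8 and 15. Microglial markers summed to 42.27 to 44.95 in caudal and 46.32 to 47.48 in rostral KO cortex. Choroid plexus markers were above the table median for 1 or 2 of 8 genes on every KO array. They summed to 24.26 to 29.36 in caudal and 30.52 to 34.51 in rostral KO cortex. These sums include Otx2, and no sum without it was taken. Among them, Otx2 read 1.32, 0.92 and -0.67 caudally and 4.76, 7.41 and 7.94 rostrally, without overlap and with a difference of -6.18. It did not pass the test, whose spread is shared with the WT arrays. In WT, Otx2 read 1.61, 7.00 and -0.27 on caudal animals 4, 6 and 14 and 7.62, 7.18 and 6.84 on rostral animals 10, 12 and 16. Kcnj13 lay the other way in KO, at 4.29, 4.40 and 4.48 caudally and 1.08, 1.56 and 4.19 rostrally, all below the table median. Ttr overlapped between the KO regions, at 4.96, 2.61 and 7.33 caudally and 3.97, 3.63 and 5.15 rostrally. The part of these cells in the results below was not tested, and in pieces of tissue fewer cells of a type and less RNA per cell cannot be told apart.

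**Figure D1:**
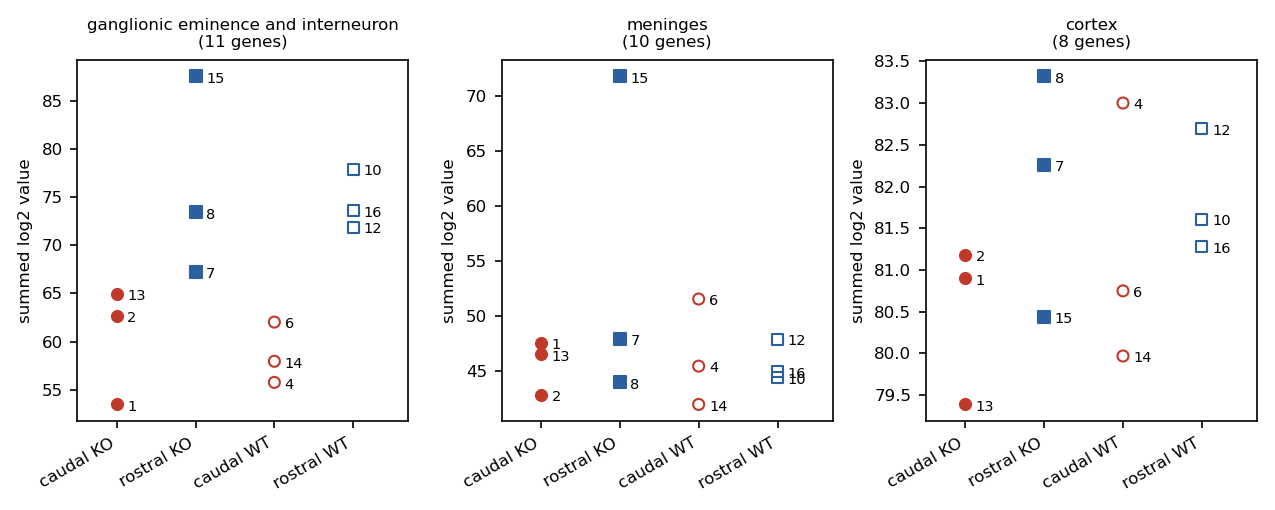
Summed log2 values of marker genes on each array, for the ganglionic eminence and interneurons, the meninges and the cortex, with the animal number beside each point; red circles are caudal and blue squares rostral, filled for KO and open for WT, and the axes do not start at 0. Rostral KO animal 15 lies above all other arrays for meninges (71.77) and for ganglionic eminence (87.54) markers.

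In KO cortex 112 genes passed the test, 0.95% of those tested. Of these, 26 were higher caudally (0.221% of tested genes) and 86 were higher rostrally (0.73%). The difference exceeded 2-fold for 52 genes, 42 of them higher rostrally. The median fold was 1.70 among the genes higher caudally and 1.94 among those higher rostrally. The 3 caudal and 3 rostral values did not overlap for any of the 112 genes, against 20.9% of all tested genes. An unadjusted p below 0.05 (limma) was reached by 1553 of the 11785 tested genes, beside which such counts for lists below are to be read. Genes of the 2 patterning lists made up 8 of the 112, and 73 belonged to none of the lists and families examined here. Of 56 genes with several tested probe sets, 51 had all of them in the same direction, and the exceptions were Pcbp2, Gnas, Rps9, Tcf20 and Neo1.

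The number of genes that passed changed when 1 array was left out. Without rostral KO animal 8 it was 20, and without rostral KO animal 15 it was 36. It was 48, 40 and 52 without caudal KO animals 1, 2 and 13, 94 without rostral KO animal 7, and 75 to 143 when a WT array was left out. With the animals 1 to 12 alone, 38 genes passed, 17 of them higher caudally. It rose to 342, 110 of them higher caudally, with the shared offset for animals 13 to 16, and to 637, 232 of them higher caudally, with array weights. All 112 genes were among those that passed in both of these fits. In all 12 fits that left out 1 array, 18 genes passed, 6 of them higher caudally and 12 higher rostrally. Those 18 included Nr2f1, Fgfr3, Flrt3, Slf1, Bmper and Gm38604 caudally, and Zic1, Sp8, Calb2, Pbx3, Il17rd, Fgfbp3, Foxp2, Mdfic, Hopx, As3mt and BC034090 rostrally. For other genes the arrays without which the gene did not pass are given with their values. Leaving out a WT array does not change a KO difference, but it changes the spread and degrees of freedom behind its p-value.

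**Figure D2:**
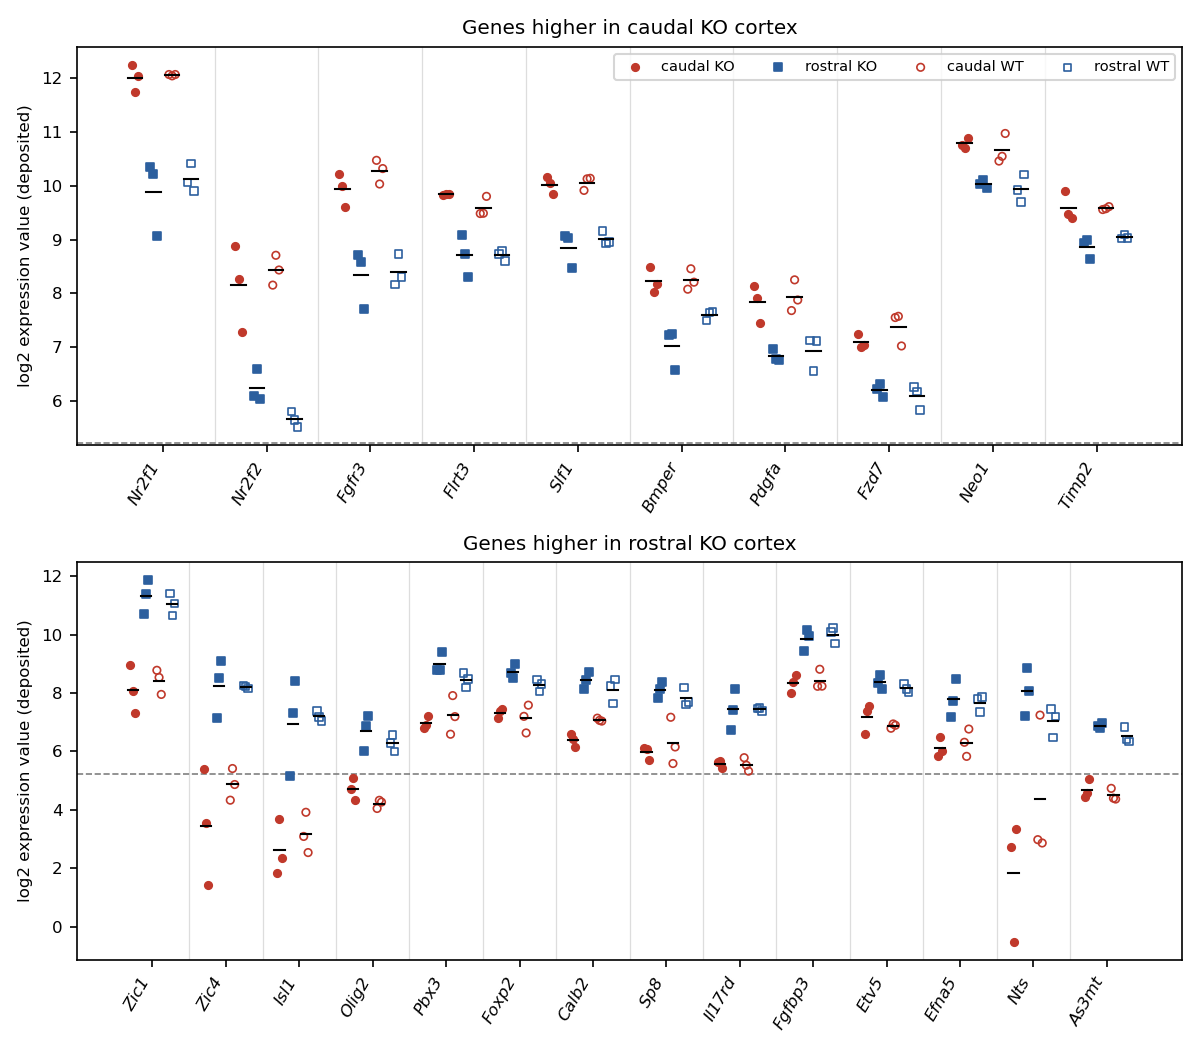
Deposited log2 values of 10 genes higher in caudal KO cortex (top) and 14 genes higher in rostral KO cortex (bottom) on all 12 arrays; red circles are caudal and blue squares rostral, filled for KO and open for WT, short lines are group means, and the dashed line is the table median of 5.21. The filled red and blue symbols do not overlap for any gene shown, and the open WT symbols are separated the same way for all of them except Nts.

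The caudal side was led by nuclear receptors of the COUP-TF family, transcription factors that promote caudal identity in the cortex. Nr2f1 (COUP-TFI) read 12.24, 11.75 and 12.04 caudally, in the order of animals 1, 2 and 13, and 10.34, 10.22 and 9.07 rostrally, in the order of animals 7, 8 and 15. Array values of other genes are given in the same order. It was high on all caudal arrays and lowest on the array of rostral animal 15, with no overlap. The difference was 2.13 ± 0.26, a 4.38-fold higher caudal level (adjusted p = 0.0027, limma; 3.42e-04 to 0.022 over 24 alternatives), and in WT it was 1.93 ± 0.26. Nr2f2 (COUP-TFII) read 8.89, 8.27 and 7.29 in caudal and 6.09, 6.60 and 6.05 in rostral KO cortex, with animal 13 the lowest of the caudal arrays. Its difference was 1.91 ± 0.31 (adjusted p = 0.0133), against 2.77 ± 0.31 in WT, and all 5 tested probe sets were higher caudally. Nr2f2 did not pass without caudal KO animal 2 or rostral KO animal 15 (adjusted p = 0.054 to 0.0644; 7.68e-04 to 0.0644 over all alternatives). Of 22 tested nuclear receptor genes these were the only 2 that passed.

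Among genes that passed, the largest caudal excess belonged to Gm38604, a predicted gene that RefSeq (GRCm38.p6) places next to Nr2f1. It and the other clone-named or predicted genes below lie outside the naming rule and were chosen after their values were seen. It read 7.48, 7.13 and 6.77 in caudal and 3.90, 4.20 and 3.50 in rostral KO cortex, where all 3 arrays were dim. The measured difference was 3.26 ± 0.30 (adjusted p = 5.75e-04), which is at least 3.77-fold, and in WT it was 3.62 ± 0.30. On the other side of Nr2f1, A830082K12Rik overlaps it in RefSeq on the opposite strand. Whether signal from one gene entered the value of the other was not tested. It read 7.54, 7.48 and 7.85 in caudal and 6.78, 6.33 and 5.59 in rostral KO cortex. Its difference was 1.39 ± 0.26 (adjusted p = 0.0245), with all 4 tested probe sets higher caudally. It did not pass without caudal KO animals 1, 2 or 13 or rostral KO animals 8 or 15 (adjusted p = 0.0627 to 0.103; 0.00475 to 0.103 over all alternatives).

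Slf1, which encodes a factor that brings the SMC5/6 complex to damaged DNA, lies 5 tested genes before Nr2f1. It read 10.16, 10.04 and 9.85 in caudal and 9.06, 9.03 and 8.46 in rostral KO cortex, with no overlap. The difference was 1.17 ± 0.15 in KO (adjusted p = 0.00389) and 1.05 ± 0.15 in WT. None of the 3 genes between Slf1 and Gm38604 passed. 2210408I21Rik differed by 1.07 ± 0.56 and Fam172a by 0.39 ± 0.11 (adjusted p = 0.442 and 0.141), and the Fam172a arrays did not overlap. Pou5f2 differed by -0.28 ± 0.80. Mctp1, beyond Slf1, was higher caudally by 1.18 ± 0.47 and did not pass (adjusted p = 0.3). On the far side Arrdc3 differed by 0.05 ± 0.11, Adgrv1 by 0.38 ± 0.18 and Lysmd3 by -0.04 ± 0.14, and none of these passed.

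**Figure D3:**
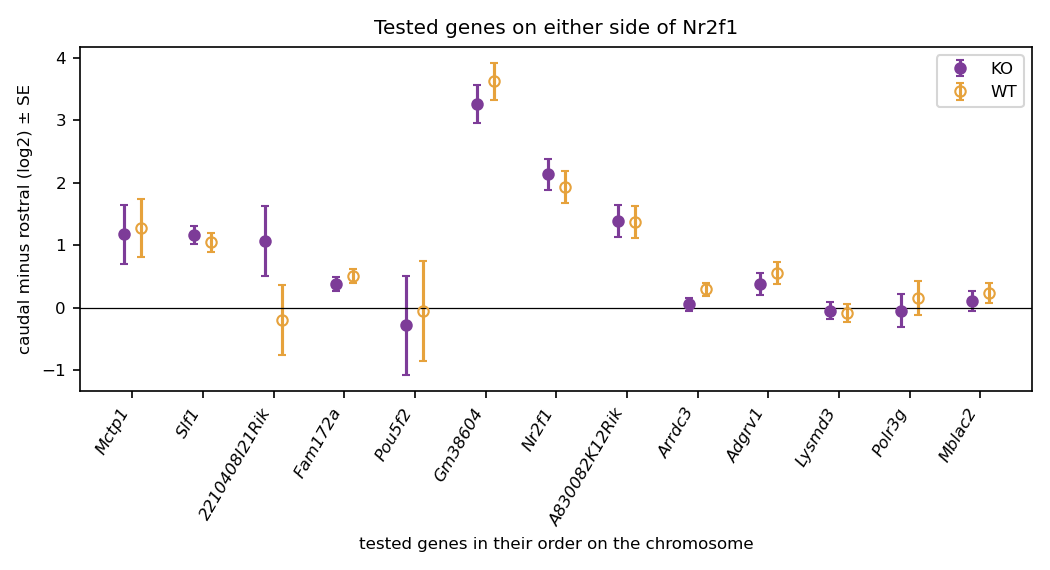
Caudal minus rostral log2 difference with its SE for Nr2f1 and the 6 tested genes on either side, in their RefSeq order on the chromosome, in KO (filled) and WT (open). The points rise to 3.26 at Gm38604, 2.13 at Nr2f1 and 1.39 at A830082K12Rik in KO and lie near 0 from Arrdc3 onwards except for Adgrv1 at 0.38.

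Among 11739 pairs of tested genes that are neighbours in RefSeq, 4 pairs had both members past the test in KO cortex. They were Gm38604 with Nr2f1, Nr2f1 with A830082K12Rik, Foxp2 with Mdfic, and Zic1 with Zic4. Members of each pair differed in the same direction. Zic1 and Zic4 overlap in RefSeq and lie on opposite strands, and whether signal from one entered the value of the other was not tested. The 250 bases before an annotated start of 4 of these genes are shown because the paired genes start close to each other and moved together. They are from RefSeq (GRCm38.p6), written 5′ to 3′ on the strand of the gene, with matches to the AP2 consensus GCCNNNGGC, searched on both strands, in capitals.
Nr2f1, minus strand, chr13:78198874-78199123: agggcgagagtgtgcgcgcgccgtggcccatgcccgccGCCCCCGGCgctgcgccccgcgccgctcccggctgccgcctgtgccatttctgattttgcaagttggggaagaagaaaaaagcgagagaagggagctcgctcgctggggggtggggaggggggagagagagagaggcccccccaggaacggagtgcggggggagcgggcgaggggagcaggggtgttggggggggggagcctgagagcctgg
A830082K12Rik, plus strand, chr13:78197767-78198016: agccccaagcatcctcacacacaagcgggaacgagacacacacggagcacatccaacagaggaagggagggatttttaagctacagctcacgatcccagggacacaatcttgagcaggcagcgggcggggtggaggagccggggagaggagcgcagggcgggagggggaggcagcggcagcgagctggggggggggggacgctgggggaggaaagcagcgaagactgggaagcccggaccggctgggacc
Zic1, minus strand, chr9:91365769-91366018: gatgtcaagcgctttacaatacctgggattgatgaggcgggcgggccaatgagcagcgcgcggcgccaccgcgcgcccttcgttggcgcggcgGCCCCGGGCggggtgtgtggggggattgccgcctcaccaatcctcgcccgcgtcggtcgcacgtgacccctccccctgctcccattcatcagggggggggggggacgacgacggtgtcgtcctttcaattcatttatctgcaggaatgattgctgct
Zic4, plus strand, chr9:91368722-91368971: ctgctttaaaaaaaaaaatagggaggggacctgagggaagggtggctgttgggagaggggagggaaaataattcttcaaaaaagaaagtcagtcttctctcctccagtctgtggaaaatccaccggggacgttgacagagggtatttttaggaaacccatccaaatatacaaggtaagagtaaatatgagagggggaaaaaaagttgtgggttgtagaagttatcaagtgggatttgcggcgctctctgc
The Nr2f1 window, which is that of the first of 2 starts in the table, had 1 match, which began 212 bases before the start. The window of the second start of Nr2f1, chr13:78196450-78196699, had none and is not printed. The Zic1 window had 1 match, 157 bases before the start. The windows of A830082K12Rik and Zic4 had none, which says only that these letters are not in these windows. At least 1 match was present for 24.4% of 9563 tested genes with a promoter in the table, for 3 of 23 genes higher caudally (13%) and for 20 of 68 genes higher rostrally (29.4%). The direct repeat AGGTCANAGGTCA, a form bound by COUP-TF receptors, was found for 3 of the 9563 genes and for none of the 23 or the 68. At 0.0314% of genes the repeat is too rare for its absence in such small groups to set them apart. A match is a description of the sequence and not a binding site.

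Of the 15 tested genes of the caudal patterning list, 8 were higher and 7 lower caudally, with a median difference of 0.06, against -0.01 over all tested genes. Without rostral animal 15 the sign of this median turned, to -0.07. Nr2f1, Nr2f2 and Fgfr3 passed in the caudal direction. Dmrta1, a doublesex-related transcription factor of cortical progenitors, passed in the opposite direction. It read 5.87, 6.21 and 6.50 in caudal and 7.38, 7.90 and 7.73 in rostral KO cortex, a difference of -1.48 ± 0.25 (adjusted p = 0.0148). It did not pass without caudal KO animals 1 or 2 or rostral KO animals 8 or 15 (adjusted p = 0.0528 to 0.103; 9.77e-04 to 0.103 over all alternatives). In WT it differed by -0.85 ± 0.25. The homeobox genes Emx2 and Lhx2, which are required for caudal and medial cortex, differed by -0.23 ± 0.27 and -0.11 ± 0.16 in KO. Their caudal and rostral arrays overlapped.

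Of the 14 tested genes of the rostral patterning list, 13 were lower caudally, with a median of -0.61 in KO and -0.77 in WT. Sp8, Il17rd, Etv5 and Pax6 passed. Sp8, a zinc finger factor that maintains FGF signalling at the rostral pole, read 6.13, 6.09 and 5.69 in caudal and 7.84, 8.14 and 8.36 in rostral KO cortex. The difference was -2.14 ± 0.32 (adjusted p = 0.00791, limma; 6.99e-04 to 0.102 over the alternatives), a 4.42-fold higher rostral level, against -1.53 ± 0.32 in WT. Pax6, a transcription factor of radial glia that is graded across the cortex, read 9.91, 9.95 and 9.87 in caudal and 10.39, 10.40 and 10.15 in rostral KO cortex. Its difference was small but did not overlap, at -0.40 ± 0.09 (adjusted p = 0.0487). Pax6 did not pass without caudal KO animals 1, 2 or 13, rostral KO animals 7 or 8, caudal WT animal 6 or rostral WT animals 10, 12 or 16 (adjusted p = 0.054 to 0.22; 0.00347 to 0.604 over all alternatives). Six3, a homeobox gene of the rostral forebrain, was lower caudally, with a difference of -1.93 ± 0.49 without overlap but did not pass (adjusted p = 0.0878).

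Members of the FGF pathway passed in both directions. Of 26 tested genes 8 were higher and 18 lower caudally, with a median of -0.37 in KO and -0.24 in WT. Of these, 6 passed, 3 in each direction. The ligands Fgf8 and Fgf17 were above the table median on too few arrays to be tested. The Fgf8 probe set read 0.62, -0.12 and -0.03 in caudal and 1.40, 0.59 and 4.35 in rostral KO cortex, all below the table median. Fgf15, a ligand gene also known as a marker of FGF activity in the mouse forebrain, was lower caudally, with a difference of -1.61 ± 0.41 without overlap and did not pass (adjusted p = 0.0878).

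Among receptors, Fgfr3 read 10.21, 10.00 and 9.60 in caudal and 8.71, 8.59 and 7.70 in rostral KO cortex. It was 3.04-fold higher caudally, a difference of 1.60 ± 0.24 (adjusted p = 0.00791; 7.68e-04 to 0.0455 over the alternatives), with 1.87 ± 0.24 in WT. The other receptors did not pass, with Fgfr2 at 0.41 ± 0.12 and Fgfr1 at -0.50 ± 0.19. Flrt3 and Flrt2 encode membrane proteins that can bind FGF receptors, latrophilins and Unc5 receptors. Flrt3 read 9.82, 9.86 and 9.85 in caudal and 9.09, 8.74 and 8.31 in rostral KO cortex, a difference of 1.13 ± 0.16 (adjusted p = 0.00691). The caudal arrays of Flrt3 lay close together, and the rostral ones were more spread. Flrt2 differed by 0.76 ± 0.15 in KO (adjusted p = 0.0389) and 0.23 ± 0.15 in WT. Flrt2 did not pass without caudal KO animals 1, 2 or 13, rostral KO animals 7, 8 or 15 or rostral WT animal 10 (adjusted p = 0.0558 to 0.183; 0.0032 to 0.183 over all alternatives).

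The 3 genes of the FGF list that passed in the opposite direction were Il17rd, Fgfbp3 and Etv5. Il17rd, an inhibitor of FGF signalling that the pathway itself induces, read 5.63, 5.69 and 5.42 in caudal and 6.74, 7.43 and 8.14 in rostral KO cortex. The rostral arrays spread more widely than the caudal ones, with no overlap. The difference was -1.86 ± 0.27 (adjusted p = 0.00791), against -1.90 ± 0.27 in WT. Fgfbp3, which encodes a secreted FGF-binding protein, read 8.02, 8.37 and 8.61 in caudal and 9.45, 10.17 and 9.96 in rostral KO cortex, a difference of -1.52 ± 0.22 (adjusted p = 0.00691). Etv5, an ETS factor induced by FGF, read 6.60, 7.40 and 7.55 and 8.36, 8.63 and 8.14, with the lowest value on caudal animal 1. Its difference was -1.19 ± 0.21 (adjusted p = 0.0189). It did not pass without rostral KO animal 8 (adjusted p = 0.113; 0.00191 to 0.113 over all alternatives). Another 6 feedback genes were lower caudally and did not pass, whereas 8 of the 26 tested genes of the whole FGF list were higher caudally. Spry1 differed by -1.11 ± 0.31, Spry2 by -0.35 ± 0.20, Spred1 by -0.47 ± 0.12, Spred2 by -0.50 ± 0.12, Spred3 by -0.83 ± 0.28 and Dusp6 by -0.53 ± 0.16. Their adjusted p ranged from 0.0633 for Spred2 to 0.51 for Spry2. None of the 6 overlapped between caudal and rostral KO arrays, which was also so for 20.9% of all tested genes.

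Zic genes, zinc finger factors of the medial and rostral forebrain and of the meninges, were lower caudally in all 4 tested members, with a median of -2.36 in KO and -1.74 in WT. Zic1 read 8.96, 8.05 and 7.31 in caudal and 10.70, 11.39 and 11.86 in rostral KO cortex. The difference was -3.21 ± 0.37, a 9.25-fold higher rostral level (adjusted p = 0.00244; 2.56e-04 to 0.0203 over the alternatives), and -2.62 ± 0.37 in WT. Zic4 read 5.40, 3.55 and 1.42 in caudal KO, where animals 2 and 13 were below the table median, and 7.13, 8.52 and 9.11 in rostral KO. Its measured difference was -4.79 ± 0.74 (adjusted p = 0.00917), which is 7.86-fold with low values raised to 5.21. Zic4 did not pass without rostral KO animals 8 or 15 (adjusted p = 0.0517 to 0.0631; 7.51e-04 to 0.0631 over all alternatives). Zic2 and Zic5 differed by -1.06 ± 0.36 and -1.51 ± 0.40 and did not pass (adjusted p = 0.208 and 0.0946). Both overlapped between the KO regions, with caudal animal 1 at 7.73 and 8.19 and rostral animal 7 at 7.40 and 8.13. Without rostral animal 15, which was high in meninges markers, the difference in Zic1 was -2.94 and it passed (adjusted p = 0.0137). Leaving Zic1 out, the other 9 meninges markers summed to 38.55, 34.80 and 39.19 on the caudal KO arrays and to 37.23 and 32.56 on those of rostral animals 7 and 8, with 59.91 on animal 15.

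Of 29 tested genes of the ganglionic eminence, striatum and interneurons 20 were lower caudally, with a median of -0.38 in KO and -0.37 in WT, and the KO median was -0.14 with low values raised to 5.21. Isl1, Pbx3 and Foxp2 passed. Isl1, a LIM homeobox gene of striatal and septal neurons, was dim on all caudal KO arrays, at 1.86, 3.69 and 2.36, and read 5.15, 7.31 and 8.41 on the rostral ones. Rostral animal 7 was just below the table median. The measured difference was -4.32 ± 0.70 (adjusted p = 0.0133), at least 3.4-fold, against -4.02 ± 0.70 in WT. Isl1 did not pass without rostral KO animals 8 or 15 (adjusted p = 0.0644 to 0.0943; 0.00145 to 0.172 over all alternatives). Pbx3, a TALE homeobox gene, read 6.82, 6.92 and 7.22 in caudal and 8.77, 8.80 and 9.41 in rostral KO cortex. It differed by -2.01 ± 0.28 (adjusted p = 0.00664), and by -1.80 without animal 15. Foxp2, a forkhead factor of striatal and deep-layer cortical neurons, read 7.16, 7.38 and 7.45 and 8.68, 8.51 and 8.99, a difference of -1.40 ± 0.21 (adjusted p = 0.00791) that all 5 tested probe sets shared in direction. Its neighbour in RefSeq, Mdfic, which encodes a transcriptional modulator, read 6.27, 6.19 and 6.59 in caudal and 7.38, 7.64 and 7.59 in rostral KO cortex, a difference of -1.19 ± 0.17 (adjusted p = 0.00691).

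Genes of the ganglionic eminence and genes of migrating interneurons differed in opposite directions in part. Dlx1 and Dlx2, homeobox genes of its progenitors, were lower caudally, with differences of -1.15 ± 0.34 and -1.12 ± 0.25 without overlap and did not pass (adjusted p = 0.141 and 0.0528). Dlx5 and Gsx2, other markers of the eminence, were also lower caudally without overlap. Dlx5 read 7.18, 7.54 and 7.47 in caudal and 7.63, 7.95 and 8.62 in rostral KO cortex. Gsx2 read 1.14, 4.33 and 4.69 caudally, all below the table median, and 6.23, 6.00 and 6.50 rostrally. Gad1, the GABA-synthesising enzyme, differed by -0.79 ± 0.28 with overlap. Lhx6 and Sst, which mark migrating cortical interneurons, were higher caudally by 0.52 ± 0.19 and 1.21 ± 0.27. Their arrays did not overlap, and neither passed (adjusted p = 0.241 and 0.0528). Nkx2-1, a defining gene of the medial eminence, was below the table median on all 6 KO arrays. Lhx8, another gene of the medial eminence, read 8.38 on rostral animal 15 and 5.39 or lower on the other 5. Leaving Isl1 out, the other 10 markers summed to 51.61, 58.94 and 62.60 in caudal and to 62.11, 66.11 and 79.13 in rostral KO cortex, and their part in the results for this list was not tested.

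Further transcription factors with higher rostral levels were Olig2, Vax1, Zfhx4, Pou3f4 and Zfp423. Olig2, a bHLH factor of ventral progenitors and oligodendrocyte precursors, was dim caudally at 4.72, 5.08 and 4.35 and read 6.02, 6.86 and 7.23 in rostral KO cortex, at least 2.8-fold higher (adjusted p = 0.0148). Olig2 did not pass without rostral KO animals 8 or 15 (adjusted p = 0.0751 to 0.103; 0.00349 to 0.122 over all alternatives). Vax1, a homeobox gene of the ventral forebrain, differed by -1.79 ± 0.36, and Pou3f4, a POU factor, by -1.08 ± 0.18. Pou3f4 differed by -1.63 ± 0.18 in WT. Zfhx4 and Zfp423, zinc finger factors, differed by -1.91 ± 0.37 and -0.94 ± 0.19. None of these 4 genes passed in all 12 fits that left out 1 array. Vax1 (adjusted p = 0.0389) did not pass without caudal KO animals 1, 2 or 13, rostral KO animals 8 or 15 or rostral WT animals 10 or 16 (adjusted p = 0.0543 to 0.137; 0.0182 to 0.225 over all alternatives). Zfhx4 (adjusted p = 0.0319) did not pass without caudal KO animals 1, 2 or 13, rostral KO animals 8 or 15 or rostral WT animal 10 (adjusted p = 0.0539 to 0.119; 0.00546 to 0.147 over all alternatives). Pou3f4 (adjusted p = 0.0157) did not pass without caudal KO animals 2 or 13 or rostral KO animals 7 or 8 (adjusted p = 0.0513 to 0.0943; 0.00179 to 0.35 over all alternatives). Zfp423 (adjusted p = 0.035) did not pass without caudal KO animals 2 or 13 or rostral KO animals 7, 8 or 15 (adjusted p = 0.057 to 0.133; 0.00552 to 0.168 over all alternatives). Hopx, a homeodomain protein of radial glia, passed in all 12 fits without 1 array. It read 8.82, 8.80 and 8.62 in caudal and 9.63, 9.90 and 9.89 in rostral KO cortex, a difference of -1.06 ± 0.13 (adjusted p = 0.00386; 3.20e-04 to 0.0477 over the alternatives), and -0.99 ± 0.13 in WT.

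Of 12 tested genes of netrins and their receptors, 8 were higher and 4 lower caudally, and 3 passed. Ntn1, the secreted cue netrin 1, read 5.80, 4.95 and 5.14 in caudal KO and 6.57, 6.91 and 8.28 in rostral KO cortex, highest on animal 15. It was lower caudally, with a difference of -1.96 ± 0.40 (adjusted p = 0.0399) and of -1.44 without animal 15. Ntn1 did not pass without caudal KO animals 1, 2 or 13, rostral KO animals 8 or 15 or rostral WT animals 10, 12 or 16 (adjusted p = 0.0558 to 0.144; 0.00731 to 0.18 over all alternatives). Its receptor Dcc was lower caudally, with a difference of -0.89 ± 0.19 (adjusted p = 0.0487), whereas the related receptor Neo1 was higher caudally by 0.75 ± 0.14 (adjusted p = 0.0253). Neo1 read 10.76, 10.71 and 10.89 in caudal and 10.04, 10.11 and 9.96 in rostral KO cortex, and 4 of its 5 tested probe sets were higher caudally. Dcc did not pass without caudal KO animals 1 or 2, rostral KO animals 8 or 15 or rostral WT animals 10, 12 or 16 (adjusted p = 0.0566 to 0.16; 0.00328 to 0.16 over all alternatives). Neo1 did not pass without caudal KO animals 1, 2 or 13 or rostral KO animals 7, 8 or 15 (adjusted p = 0.0551 to 0.103; 0.00344 to 0.62 over all alternatives).

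Of 11 tested genes of teneurins, latrophilins and FLRT proteins, which bind each other across synapses, 10 were higher caudally, with a median of 0.49 in KO and 0.26 in WT. Flrt3 and Flrt2 were the 2 that passed, and Tenm2 differed by 0.82 ± 0.30 without overlap. Efna5, the ephrin-A5 ligand that guides thalamic axons, read 5.86, 6.49 and 6.03 in caudal and 7.19, 7.72 and 8.47 in rostral KO cortex. It was lower caudally, with a difference of -1.66 ± 0.31 (adjusted p = 0.0245). Efna5 did not pass without caudal KO animals 1 or 13 or rostral KO animals 8 or 15 (adjusted p = 0.0716 to 0.11; 0.00611 to 0.11 over all alternatives). Of the 9 tested Eph receptors 6 were higher and 3 lower caudally, and none passed by limma, with an unadjusted p below 0.05 for 5. Their median was 0.41, but 0.05 without rostral animal 15 and 0.06 with low values raised to 5.21. Epha3, Epha5 and Epha7 differed by 0.51 ± 0.15, 0.56 ± 0.14 and 0.51 ± 0.14 without overlap. Cdh10, a type II cadherin, read 7.94, 8.14 and 8.26 in caudal and 8.92, 8.93 and 8.96 in rostral KO cortex, a difference of -0.82 ± 0.12 (adjusted p = 0.00791). It did not pass without rostral KO animal 8 (adjusted p = 0.0534; 7.68e-04 to 0.427 over all alternatives). Pcdh20, a protocadherin, was lower caudally, with a difference of -1.23 ± 0.23 (adjusted p = 0.0245). Pcdh20 did not pass without caudal KO animals 2 or 13 or rostral KO animals 8 or 15 (adjusted p = 0.0706 to 0.112; 0.00347 to 0.117 over all alternatives).

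Of 17 tested genes of neuropeptides and their receptors, 10 were higher and 7 lower caudally, with a median of 0.23 in KO, of 0.12 without rostral animal 15 and of 0.10 in WT. Nts and Adcyap1 passed, both in the rostral direction. Nts, which encodes the neuropeptide neurotensin, was dim in caudal KO cortex at 2.72, -0.52 and 3.34 and read 7.23, 8.87 and 8.07 in rostral KO cortex. The measured difference of -6.21 ± 1.09 was the largest of all genes that passed (adjusted p = 0.0189) and amounts to at least 7.17-fold. In WT, Nts read 2.98, 7.24 and 2.87 caudally, where animal 6 was as high as the rostral arrays at 7.45, 6.47 and 7.20, and it did not pass. In KO, Nts did not pass without caudal KO animal 2 or rostral KO animals 8 or 15 (adjusted p = 0.0605 to 0.112; 0.00109 to 0.112 over all alternatives). Adcyap1, the gene of the neuropeptide PACAP, read 5.32, 3.92 and 4.86 in caudal and 6.33, 6.26 and 6.30 in rostral KO cortex, a difference of -1.59 ± 0.30 (adjusted p = 0.0266), against -0.31 ± 0.30 in WT. Adcyap1 did not pass without caudal KO animals 2 or 13 or rostral KO animals 7, 8 or 15 (adjusted p = 0.054 to 0.123; 0.00376 to 0.136 over all alternatives). Calb2, calretinin, a calcium-binding protein of Cajal-Retzius cells and of some interneurons, read 6.60, 6.41 and 6.17 in caudal and 8.13, 8.44 and 8.73 in rostral KO cortex. It had the smallest adjusted p among the genes higher rostrally, 9.06e-04 (8.14e-05 to 0.0166 over the alternatives), with a difference of -2.04 ± 0.21 in KO and -1.04 ± 0.21 in WT. The other 7 measured markers of Cajal-Retzius cells summed to 51.28, 49.45 and 45.57 in caudal and to 49.46, 48.98 and 50.11 in rostral KO cortex.

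Among secreted signals and receptors outside the FGF family, the caudal side held Bmper, Pdgfa and Fzd7. Bmper, a secreted regulator of BMP ligands, read 8.49, 8.02 and 8.18 in caudal and 7.22, 7.25 and 6.58 in rostral KO cortex, a difference of 1.21 ± 0.18 (adjusted p = 0.00791; 0.00255 to 0.0541 over the alternatives), and 0.65 ± 0.18 in WT. Of 27 tested genes of the BMP and TGF-beta list, which does not hold Bmper, none passed in KO by limma, and 7 had an unadjusted p below 0.05. Pdgfa, a platelet-derived growth factor, differed by 1.00 ± 0.21 and the Wnt receptor Fzd7 by 0.89 ± 0.18 (adjusted p = 0.0427 and 0.0399). Pdgfa did not pass without caudal KO animals 1 or 2, rostral KO animals 7, 8 or 15 or rostral WT animals 10 or 16 (adjusted p = 0.0568 to 0.179; 0.00279 to 0.37 over all alternatives). Fzd7 did not pass without caudal KO animals 1, 2 or 13, rostral KO animals 7, 8 or 15 or rostral WT animals 10 or 12 (adjusted p = 0.0562 to 0.142; 0.00608 to 0.142 over all alternatives). On the rostral side lay Gfra1, a receptor for GDNF, at -1.18 ± 0.23 (adjusted p = 0.0361), and Pth1r, the parathyroid hormone receptor, which was dim caudally and at least 2.26-fold higher rostrally (adjusted p = 0.0157). Gfra1 did not pass without caudal KO animals 1, 2 or 13, rostral KO animals 8 or 15 or rostral WT animals 10, 12 or 16 (adjusted p = 0.0539 to 0.182; 0.00961 to 0.204 over all alternatives). Pth1r did not pass without caudal KO animal 2 or rostral KO animal 8 (adjusted p = 0.057 to 0.112; 8.28e-04 to 0.112 over all alternatives).

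As3mt, BC034090, Dct and Loxl1 belong to no common list and were put together after their values were seen. As3mt, an arsenite methyltransferase, was dim in caudal KO cortex at 4.45, 4.58 and 5.06 and read 6.88, 6.81 and 6.97 in rostral KO cortex. It was at least 3.19-fold higher rostrally in KO (difference -2.19 ± 0.24, adjusted p = 0.00196; 8.48e-05 to 0.0203 over the alternatives), and it differed by -2.03 ± 0.24 in WT. BC034090, a clone-named gene, was also dim caudally at 2.64, 2.09 and 1.91, read 5.98, 5.95 and 5.85 rostrally and passed in all 12 fits without 1 array (adjusted p = 0.00664). Dct, the pigment enzyme dopachrome tautomerase, read 6.79, 7.50 and 7.30 and 10.26, 10.25 and 10.22. The rostral KO arrays of Dct lay closer together than the caudal KO ones, and the difference was -3.05 ± 0.65 (adjusted p = 0.0472). This SE comes from the shared fit, which also held caudal WT values of 8.81, 6.14 and 4.95. Dct did not pass without caudal KO animals 1, 2 or 13, rostral KO animals 7, 8 or 15, caudal WT animal 6 or rostral WT animals 10, 12 or 16 (adjusted p = 0.0538 to 0.172; 2.49e-04 to 0.172 over all alternatives). Loxl1, which cross-links elastic fibres, differed by -2.34 ± 0.39 (adjusted p = 0.0154), and it read 8.23, 8.53 and 8.46 on the rostral arrays, no higher on animal 15 than on animal 8. It did not pass without rostral KO animals 8 or 15 (adjusted p = 0.0646 to 0.0943; 0.00111 to 0.0943 over all alternatives).

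The 9 genes that follow belong to no common list and were put together after their values were seen. None of them passed in all 12 fits that left out 1 array. Of the 20 tested collagen genes 1 passed, Col9a1, and of 20 tested laminin and integrin genes none passed by limma or had an unadjusted p below 0.05. The collagen gene Col9a1 and the hyaluronan-binding gene Tnfaip6 were dim caudally and at least 1.65-fold and 2.09-fold higher rostrally (adjusted p = 0.035 and 0.0245). Col9a1 did not pass without caudal KO animals 1, 2 or 13, rostral KO animals 7, 8 or 15 or rostral WT animals 10 or 16 (adjusted p = 0.0562 to 0.173; 0.00514 to 0.173 over all alternatives). Tnfaip6 did not pass without caudal KO animals 1, 2 or 13 or rostral KO animals 7, 8 or 15 (adjusted p = 0.0516 to 0.112; 0.00367 to 0.112 over all alternatives). Cemip, which acts in hyaluronan breakdown, differed by -1.07 ± 0.18 and Serping1, the complement inhibitor, by -0.96 ± 0.14 (adjusted p = 0.0183 and 0.00791). Cemip did not pass without caudal KO animal 1 or rostral KO animals 7 or 8 (adjusted p = 0.052 to 0.0665; 0.00328 to 0.0665 over all alternatives). Serping1 did not pass without rostral KO animal 8 (adjusted p = 0.0568; 8.21e-04 to 0.0568 over all alternatives). The metalloprotease Adamts18 and the metalloprotease inhibitor Timp2 were higher caudally, by 1.78 ± 0.39 and 0.73 ± 0.13 (adjusted p = 0.0496 and 0.0189). Adamts18 did not pass without caudal KO animals 1, 2 or 13, rostral KO animals 8 or 15, caudal WT animals 4 or 6 or rostral WT animals 10, 12 or 16 (adjusted p = 0.0521 to 0.146; 0.0196 to 0.181 over all alternatives). Timp2 did not pass without caudal KO animal 1 or rostral KO animals 8 or 15 (adjusted p = 0.0558 to 0.0782; 0.0039 to 0.249 over all alternatives). Gsn, which encodes the actin-severing protein gelsolin, was at least 2.86-fold higher rostrally, Tagln2, a transgelin, 2.12-fold and Lima1, a LIM domain protein that binds actin, 1.66-fold (adjusted p = 0.0245, 0.0219 and 0.0133). Gsn did not pass without caudal KO animals 1 or 13 or rostral KO animals 8 or 15 (adjusted p = 0.0642 to 0.128; 0.00347 to 0.129 over all alternatives). Tagln2 did not pass without caudal KO animal 13 or rostral KO animals 7, 8 or 15 (adjusted p = 0.0536 to 0.103; 0.00344 to 0.107 over all alternatives). Lima1 did not pass without caudal KO animal 1 or rostral KO animal 8 (adjusted p = 0.0558 to 0.0943; 8.56e-04 to 0.399 over all alternatives). The part of meningeal cells, whose markers were high on rostral animal 15, in these values was not tested.

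Of 30 tested radial glia genes, 12 were higher and 18 lower caudally with a median of -0.04. Fgfr3, Hopx and Pax6 passed, the first in the caudal direction. An unadjusted p below 0.05 was reached by 10 of the 30, against 1553 of all 11785 tested genes. Of 31 tested genes of basal progenitors, 14 were higher and 17 lower with a median of -0.04, and of -0.08 without rostral animal 15. Nrn1 and Slc17a6 passed, and 9 of the 31 had an unadjusted p below 0.05. Eomes, the defining transcription factor of basal progenitors, differed by 0.03 ± 0.12, with overlap. Nrn1, which encodes the membrane-bound neuritin, read 9.83, 9.79 and 9.77 in caudal and 10.09, 10.14 and 10.16 in rostral KO cortex, a difference of -0.33 ± 0.07 (adjusted p = 0.0389). Slc17a6, the vesicular glutamate transporter VGLUT2, differed by -0.41 ± 0.08 (adjusted p = 0.0395). Nrn1 did not pass without caudal KO animals 1, 2 or 13, rostral KO animals 7, 8 or 15 or rostral WT animals 10, 12 or 16 (adjusted p = 0.0521 to 0.172; 0.00546 to 0.18 over all alternatives). Slc17a6 did not pass without caudal KO animals 1, 2 or 13, rostral KO animals 7, 8 or 15 or rostral WT animals 10, 12 or 16 (adjusted p = 0.0542 to 0.143; 0.00524 to 0.163 over all alternatives).

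Of 24 tested S phase genes 21 were lower caudally, with a median of -0.14, and of 29 tested G2 and M phase genes 27 were, with a median of -0.21, against 52.8% of all tested genes. None passed by limma. An unadjusted p below 0.05 was reached by 4 of the 24 and 3 of the 29, against 1553 of all 11785 tested genes. The WT medians were -0.13 and -0.15. Of 28 young neuron genes 20 were higher caudally, with a median of 0.13 in KO and 0.01 in WT. None of these passed by limma, and 6 had an unadjusted p below 0.05. Of 13 microglial genes 12 were lower caudally, with a median of -0.38 in KO and -0.33 in WT, and none passed (4 with an unadjusted p below 0.05).

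**Figure D4:**
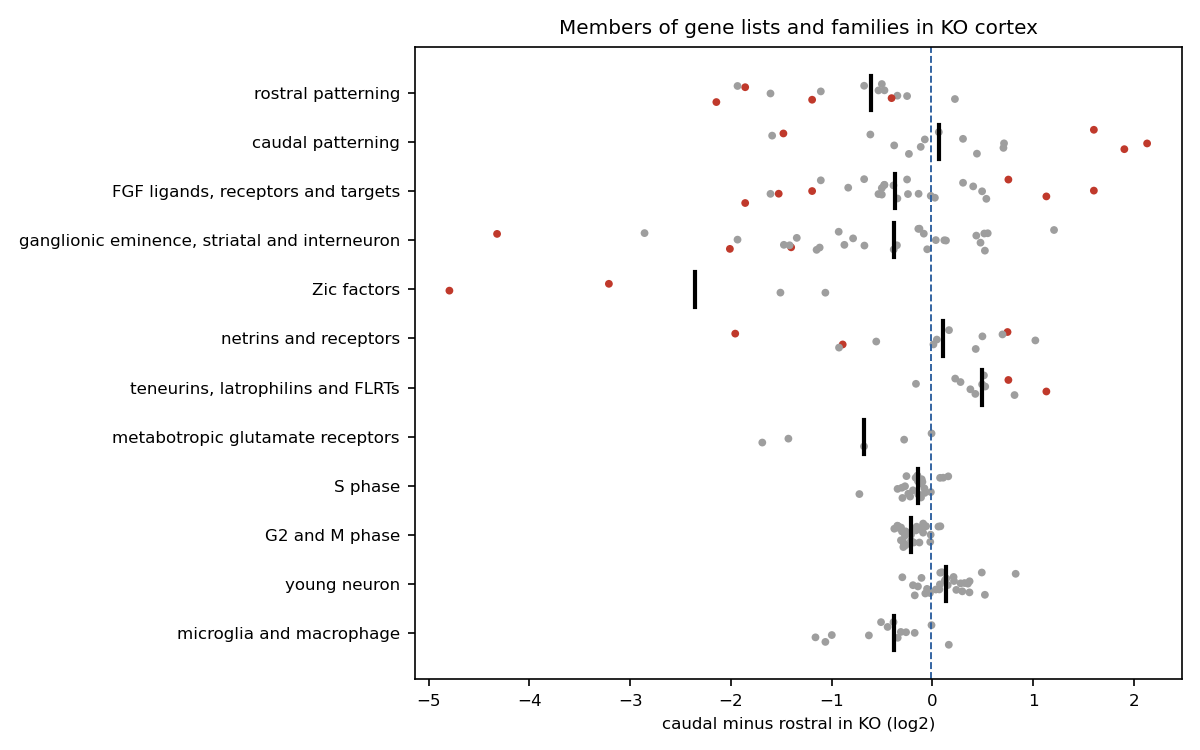
Caudal minus rostral log2 difference in KO cortex for each tested member of 12 gene lists or families, 1 point a gene, red where it passed the test, with the list median as a black line and the median of all tested genes (-0.01) as a dashed line. Medians are -2.36 for Zic factors, -0.61 for rostral patterning and 0.49 for teneurins, latrophilins and FLRTs.

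The same comparison in WT used 6 other arrays. There 111 genes passed (0.942% of tested genes), 30 higher and 81 lower caudally, and 50 genes passed in both genotypes, all in the same direction. They were 44.6% of the genes that passed in KO and 45.0% of those that passed in WT. Both comparisons took the spread of each gene from the fit of all 12 arrays, so the 2 results are not independent. With only the 2 groups compared, 72 genes passed in KO and 61 in WT. Of the 112 KO genes, 109 had the same sign in WT, against 63.5% of all tested genes, and 102 (91.1%) did not overlap between the WT regions, against 13.9% of all tested genes. Over the KO genes higher caudally the median difference was 0.77 in KO and 0.64 in WT, and over those lower caudally -0.96 and -0.77. Over the genes chosen in WT the order was reversed, with 0.72 in KO and 1.03 in WT for the higher genes and -0.69 and -0.95 for the lower ones. Over all tested genes the KO and WT differences had a Pearson correlation of 0.522 and a Spearman correlation of 0.395, given as a description across genes, which are not replicates. Caudal WT animal 6 stood apart from the other 5 WT arrays in choroid plexus markers, with 6 of 8 above the table median.

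The KO difference was tested against the WT difference for every gene. None passed by limma, and 358 genes had an unadjusted p below 0.05. Thus a gene past the test in KO and not in WT is not shown to differ between the genotypes. The smallest adjusted p belonged to Snx2, a sorting nexin of the retromer. It read 9.26, 9.24 and 9.04 in caudal KO, 9.87, 9.74 and 9.83 in rostral KO, 9.68, 9.63 and 9.33 in caudal WT and 9.22, 9.33 and 9.08 in rostral WT. It differed in KO by -0.64 ± 0.11 (adjusted p = 0.0189) and differed by 0.34 ± 0.11 in WT, and the difference of the differences was -0.98 ± 0.16 (adjusted p = 0.342). With the shared offset for animals 13 to 16 it was the single gene that passed this test. In KO alone Snx2 did not pass without caudal KO animals 2 or 13 or rostral KO animals 7, 8 or 15 (adjusted p = 0.052 to 0.0798; 0.00279 to 0.0798 over all alternatives). Tmem163, a zinc-binding membrane protein, and the tetraspanin Tspan14 were the other genes that passed in KO with the opposite sign in WT. Tmem163 differed by -0.77 ± 0.17 in KO and 0.39 ± 0.17 in WT, and Tspan14 by 0.57 ± 0.12 and -0.11 ± 0.12. Tmem163 (adjusted p = 0.049 in KO) did not pass without caudal KO animals 2 or 13, rostral KO animals 7, 8 or 15, caudal WT animal 4 or rostral WT animals 10, 12 or 16 (adjusted p = 0.0521 to 0.21; 0.00487 to 0.21 over all alternatives). Tspan14 (adjusted p = 0.0487) did not pass without caudal KO animals 1, 2 or 13, rostral KO animals 7, 8 or 15, caudal WT animal 14 or rostral WT animals 10, 12 or 16 (adjusted p = 0.05 to 0.169; 0.0186 to 0.27 over all alternatives). Their differences of differences did not pass (adjusted p = 0.991 and 0.999).

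**Figure D5:**
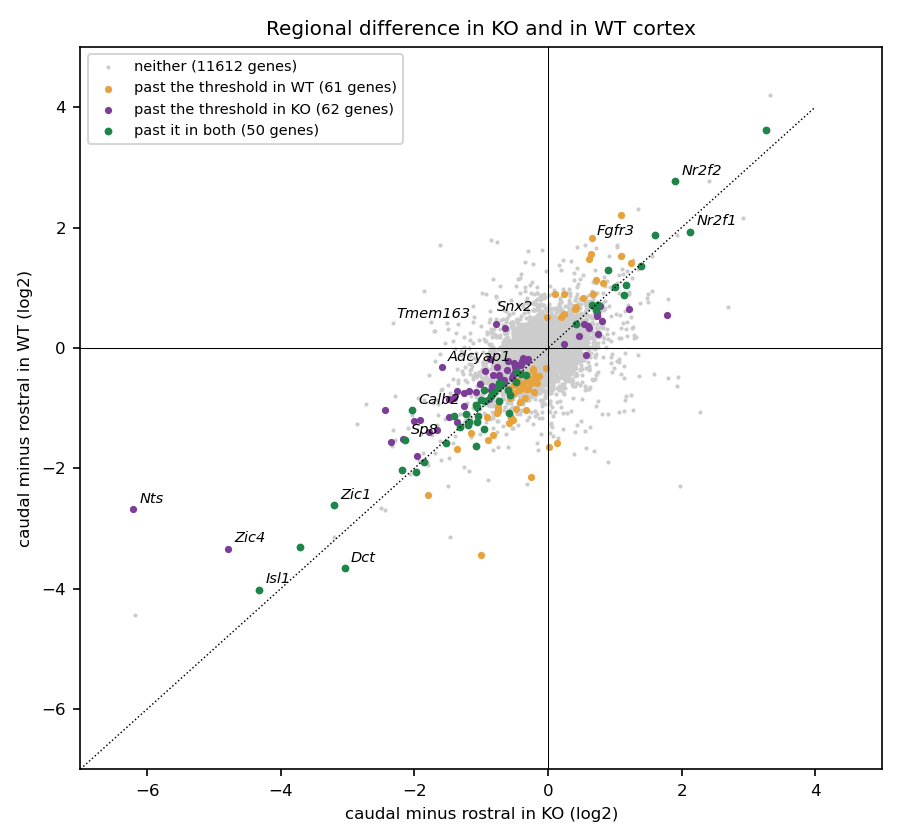
Caudal minus rostral log2 difference of each of 11785 tested genes in KO (horizontal) and WT (vertical), coloured by the genotype in which the gene passed the test, with equality as a dotted line. The 50 genes past the test in both (green) share their sign, and Snx2 and Tmem163 lie above 0 in WT and below 0 in KO.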

How the data were processed

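Expression was compared between 3 caudal and 3 rostral pieces of KO cortex, with 6 WT arrays as reference, 12 arrays in all. The values are the log2 expression values deposited by the authors, 1 for each of 45101 probe sets. The scale was read from the values, and the methods of background correction, normalisation and summarisation are not given in the sources used here. Platform annotation named 1 gene for 34958 probe sets, several for 932 and none for 9211; 34754 matched RefSeq (GRCm38.p6) by gene ID. A probe set was tested if above the table median (5.21) on at least 3 arrays (21288 probe sets), and the one of highest mean stood for each of 11785 genes among 18194 named. All 12 arrays entered 1 limma fit (version 3.58.1, R 4.3.3) with 4 group means, variances moderated along intensity (residual degrees of freedom 8, prior 5.37), two-sided p-values and Benjamini-Hochberg adjustment. The procedure was tested on simulated data.

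Named genes were the 20 of largest fold each way that passed without overlap, up to 5 per list or family, or the 2 of smallest p where none passed, a fixed set of cortical genes, and the 10 of smallest p for the difference between genotypes. The lists, families and comparison were chosen with earlier results of these data known. One gene is not reported here. Alternatives were quantile normalisation, median centring, flooring, other filters, the mean of probe sets, no trend, robust moderation, array weights, a block for animals 13 to 16, only the 2 groups compared, other thresholds and each array left out. The fit of animals 1 to 12 only was added after seeing the data.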

Additional observations from a re-analysis of the deposited data

How the results depend on the processing

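The number of genes that passed in KO (112) moved by over 1.5 times under several settings. It was 56 without the intensity trend, 72 with only the 2 groups compared (52 of them among the 112), 637 with array weights, 342 with the block for animals 13 to 16, 38 with animals 1 to 12 only, 24 at an adjusted p below 0.01 and 280 below 0.10. Leaving out 1 array gave 20 to 143. For WT (111) the numbers were 69 without the trend, 61 with only the 2 groups, 257 with the block, 72 with animals 1 to 12 only, 26 and 239 at the thresholds of 0.01 and 0.10, and 27 to 134 with 1 array left out. Fits with fewer samples have fewer degrees of freedom; for the other settings the cause was not tested. The difference between genotypes gave 1 gene with the block and 0 in the other settings run. For Tfap2c the caudal KO difference of -1.22 passed with the block (adjusted p = 0.00591).

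Of 2660 values of the genes that passed, recomputed under the alternatives, 1769 kept their direction and side of the threshold, 890 kept their direction only and 1 reversed, Rps9 at -0.0427 with the mean of its probe sets. Among 2739 values of other named genes 10 reversed. With 1 array left out, Ccdc14 ranged from -0.0571 to 0.397, Eomes from -0.0408 to 0.127, Lhx2 from -0.221 to 0.0734 and Scn3a from -0.371 to 0.0026. Grin2d was 0.026 with animals 1 to 12 only, Hnrnpr 0.0067 with the mean of probe sets and Irx3 0.0552 with values floored.

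No paired analysis was possible because the groups share no animal number. Signal over background limits genes dim in 1 region, 10 caudally and 1 rostrally among the 112, whose folds are lower limits.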

Other observations

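Several lists not described above had no gene past the test. Of 94 tested respiratory chain genes, which encode subunits of mitochondrial electron transport, 64 were higher caudally in KO, with a median of 0.06 (0.04 without rostral animal 15), and 68 were lower caudally in WT, with a median of -0.04. Of 73 tested mitochondrial ribosomal protein genes 53 were higher caudally in KO, with a median of 0.08 (0.03 without rostral animal 15), and 39 in WT, with a median of 0.01. Of 29 splicing factors 25 were lower caudally in KO and 12 in WT, with medians of -0.06 and 0.02. Of 18 cholesterol synthesis genes 15 were higher caudally in KO, with a median of 0.10, and 10 in WT, with a median of 0.06. None of these genes passed in KO by limma. An unadjusted p below 0.05 was reached by 16 of the 94, 4 of the 73, 6 of the 29 and 3 of the 18. Over all 11785 tested genes it was reached by 1553. The difference between genotypes was not tested for these lists.

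The 5 tested metabotropic glutamate receptor genes were all lower caudally in KO, with a median of -0.68, and 4 of the 5 in WT, with a median of -0.35. All 5 tested genes of the Slit and Robo guidance family were lower caudally in KO, with a median of -0.38 (-0.22 with low values raised to 5.21). None passed by limma, with an unadjusted p below 0.05 for 3 and 2 genes.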
